A study of Mus musculus with 19 samples.

Results

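The 45 genes described here encode the machinery of mitosis: the kinases and cyclins of mitotic entry, the spindle checkpoint, the kinetochore, the motors of the spindle, the proteins of cytokinesis and anaphase, and the proteins that condense chromosomes. They were chosen by name, from a list of the genes' known roles, by a rule that uses no measured value, although earlier results of these data were known when the list was chosen. All 45 were among the 35825 genes of the count table, and all 45 passed the filter on low counts, as did 18321 genes in all. RNA-Seq was available for 19 murine neuroblastomas in 3 groups. Every mouse carried, by its label, R26.FSF.FGFR1-N546K tg/wt and Th-IRES Cre tg/wt. The study's text writes the first as R26-LSL-FGFR1-N546K. By that text, Cre from the tyrosine hydroxylase promoter removes a stop cassette between loxP sites, and a CAG promoter then drives mutant FGFR1. A legend in its supplement names FRT sites and the recombinase Flp for this cassette. The group with no further transgene had 4 tumors of mice aged 6 or 7 days and 4 tumors of mice aged 14 days. The FGFR1;MYCN group also carried Th-MYCN tg/wt, which places MYCN under the tyrosine hydroxylase promoter, and had 11 tumors from 8 mice aged 18 to 21 days, since mouse23, mouse36 and mouse84 gave an adrenal and a pelvic tumor each. Genotype and age therefore cannot be told apart between FGFR1;MYCN tumors and either FGFR1 group. The p-values measure the spread between tumors.

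The count total per tumor lay between 40010738 and 75882643, and the lowest count of any of the 45 genes in any tumor was 133, for Cdc25c. Markers of sympathetic neuroblasts, the cells neuroblastoma arises from, were present in every tumor: the lowest value of any of the 8 was 25.1 CPM (counts scaled to a common library total), for Gata3. Of these 8, 6 were higher and 0 lower in FGFR1;MYCN than in 14-day tumors (edgeR adjusted p under 0.05, median log2 fold change 1.11). Against 6- to 7-day tumors 2 were higher and 0 lower (median 0.45). Their summed level was 1681 to 2068 CPM in 6- to 7-day tumors, 943 to 2455 CPM in 14-day tumors and 1525 to 3201 CPM in FGFR1;MYCN tumors. The 8 fibroblast markers summed to 7098 to 13672 CPM, 5317 to 10246 CPM and 805 to 2114 CPM in the same order, and all 8 were lower in FGFR1;MYCN tumors than in either FGFR1 group, as were all 8 endothelial, all 8 Schwann cell and all 8 lymphoid markers. Liver markers summed to 36216 CPM and muscle markers to 13942 CPM in the 14-day tumor T15, liver markers to 102287 CPM in the 6- to 7-day tumor T2, and liver and exocrine pancreas markers to 143087 CPM and 98186 CPM in the FGFR1;MYCN tumor of mouse2149. In bulk tumors fewer dividing cells and less RNA per dividing cell cannot be told apart. The part of neuroblast content and of these other cells in the differences below was not tested.

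Mitosis begins when CDK1 bound to B-type cyclins is switched on by CDC25 phosphatases. Kinetochores then assemble on centromeres and capture spindle microtubules, and the spindle checkpoint holds back the anaphase-promoting complex until all are attached. CDC20 then turns that complex on, cyclin B1 and securin are destroyed, sister chromatids part, and the central spindle and a ring of actin divide the cell. Most of the genes involved are kept silent outside late cell cycle phases by the DREAM complex, which sits at a promoter element called CHR, and are switched on by B-MYB and FOXM1, while the factor NF-Y binds CCAAT boxes nearby.

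RefSeq promoter windows (GRCm38.p6, 250 bases before to 50 after the start) were found for 36 of the 45 genes and are described here because most of the genes were high or low in the same tumors. On either strand, the CHR letters TTTGAA were found in 26 of the 36 windows (72.2%) and in 20.2% of the windows of all 27025 genes. The letters CCAAT were found in 26 of 36 (72.2%) and in 41.1% of all genes, and both motifs stood in 1 window for 22 of 36 genes (61.1%) and 7.97% of all genes. The MYC-type E-box CACGTG was found in 2 of 36 (5.56%), against 8.09% of all genes, and the E2F-type letters GCGGGAA in 1 of 36 (2.78%), against 5.29%. These matches are counts of letters and not of bound sites. The 6 sequences with both motifs and that of Pttg1, the gene that moved against the others, show the 110 bases just before the RefSeq start. They are written along the gene's strand, with TTTGAA and CCAAT or their reverse complements in capitals.
Cdk1, chr10:69352913-69353022, minus strand: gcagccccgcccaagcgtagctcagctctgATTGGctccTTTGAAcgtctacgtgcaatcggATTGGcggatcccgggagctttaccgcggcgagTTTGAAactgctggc
Kif11, chr19:37376272-37376381, plus strand: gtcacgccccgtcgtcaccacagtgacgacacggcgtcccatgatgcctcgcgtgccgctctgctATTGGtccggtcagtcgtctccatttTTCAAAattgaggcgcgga
Prc1, chr7:80294366-80294475, plus strand: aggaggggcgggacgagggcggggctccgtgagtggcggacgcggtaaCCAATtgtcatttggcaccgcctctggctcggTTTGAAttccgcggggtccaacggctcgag
Cdc20, chr4:118437344-118437453, minus strand: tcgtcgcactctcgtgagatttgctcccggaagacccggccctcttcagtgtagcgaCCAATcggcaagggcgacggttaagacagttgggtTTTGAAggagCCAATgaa
Ube2c, chr2:164769819-164769928, plus strand: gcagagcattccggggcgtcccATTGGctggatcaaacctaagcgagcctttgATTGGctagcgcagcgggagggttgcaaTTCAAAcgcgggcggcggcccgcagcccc
Top2a, chr11:99024190-99024299, minus strand: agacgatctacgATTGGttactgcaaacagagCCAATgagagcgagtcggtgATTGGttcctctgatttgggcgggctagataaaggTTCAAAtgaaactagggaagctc
Pttg1, chr11:43425982-43426091, minus strand: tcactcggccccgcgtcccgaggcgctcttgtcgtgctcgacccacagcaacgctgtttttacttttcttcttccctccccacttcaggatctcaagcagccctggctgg
Kif11, Ube2c and Top2a carry CHR on the opposite strand, as TTCAAA, and the other 3 carry TTTGAA. In Pttg1 neither motif was found in these bases, nor in the whole 300-base window, chr11:43425932-43426231. GENCODE places the start of this minus-strand gene upstream of that window, at 43426251. Bases before the GENCODE start were not searched. The windows of Mad2l1, Birc5, Nuf2, Nusap1 and Ncaph held neither motif as well, and these genes did not move with Pttg1. Their log2 fold changes of FGFR1;MYCN over 14-day tumors were 0.72, 0.66, 0.78, 0.42 and 0.56. Any link of the motifs to the levels was not tested.

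The 14-day FGFR1 tumors held the lowest levels of nearly all of these genes. The mean of the 14-day tumors was the lowest of the 3 groups for 43 of 45 genes, the mean of the 6- to 7-day tumors was the highest for 30, and that of the FGFR1;MYCN tumors was the highest for 14. Pttg1, which encodes securin, was the 1 gene whose mean was highest at 14 days. FGFR1;MYCN tumors differed from 14-day tumors in 26 of 45 genes (edgeR quasi-likelihood test, adjusted p under 0.05), of which 25 were higher and 1, Pttg1, was lower. Of all genes tested, 20.3% were higher and 23.7% lower in this comparison, and the median log2 fold change was 0.84 over the 45 genes and 0.03 over all. The levels of the 2 groups did not overlap for 3 genes that were higher, Ccnb1, Cdc25c and Kif2c, and for Pttg1, whereas 7.96% of all genes were higher without overlap. Without T15, the 14-day tumor with the lowest levels, 16 genes passed the threshold, 15 of them higher, and the 16 included Pttg1. With the mouse as a random effect in limma, 22 of the 45 passed, and 8592 genes in all. With the adrenal tumor only for mice with 2 tumors these counts were 23 and 8415, and with counts summed per mouse 25 and 8180.

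**Figure D1:**
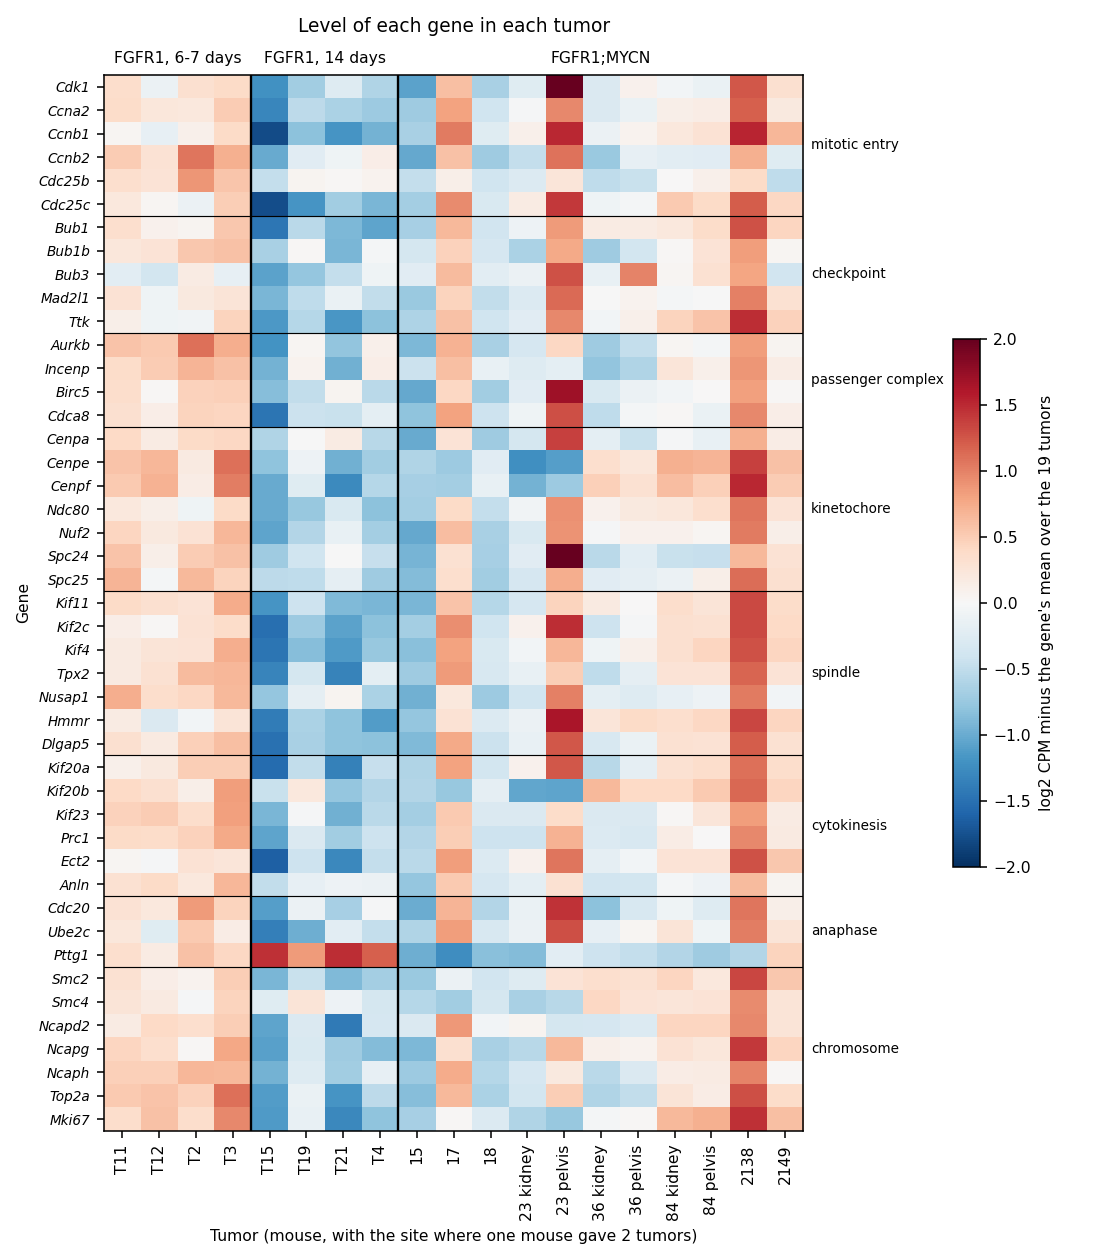
Levels of the 45 genes (rows, by role) in the 19 tumors (columns), as log2 CPM minus the gene's mean over all tumors, with red above and blue below the mean. The 4 columns of 14-day tumors are blue for nearly every gene except Pttg1, and the FGFR1;MYCN columns run from blue in mouse15 to red in mouse2138.

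**Figure D2:**
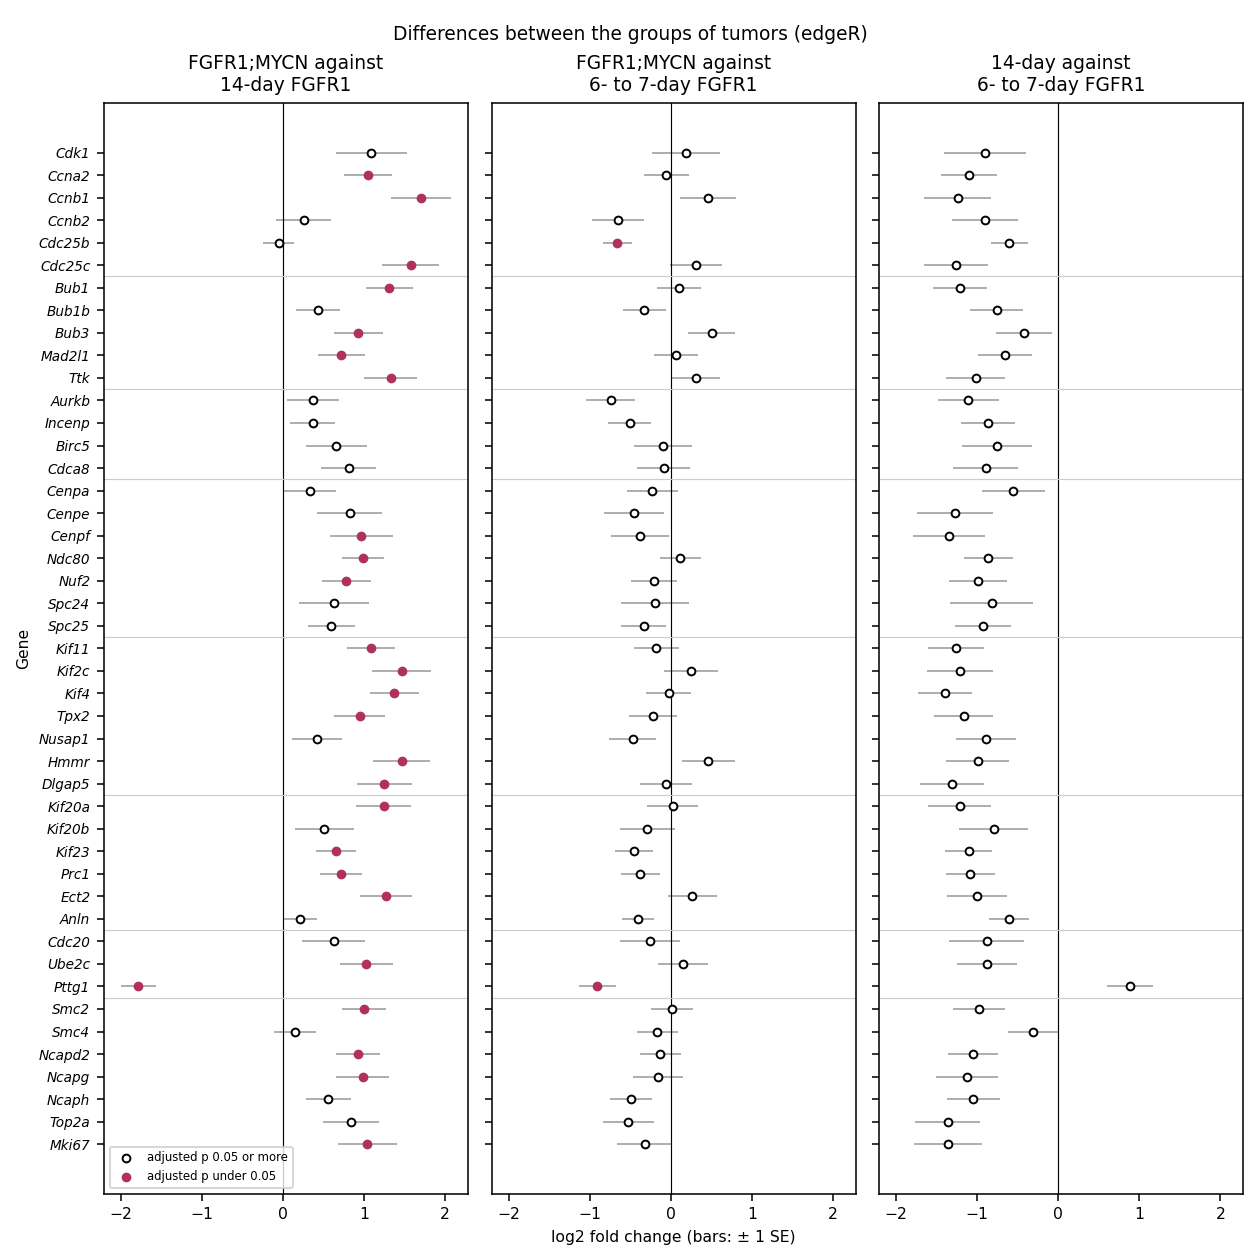
Log2 fold changes (x axis, bars ± 1 SE) of the 45 genes (y axis, by role) in 3 comparisons of tumor groups. Filled points have an adjusted p under 0.05: 26 genes against 14-day tumors, 2 against 6- to 7-day tumors and 0 between the ages.

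In what follows, levels are normalised CPM, the 6- to 7-day tumors are listed in the order T11, T12, T2 and T3, the 14-day tumors in the order T15, T19, T21 and T4, and the FGFR1;MYCN tumors by their lowest, median and highest of 11. Differences are log2 fold changes ± SE of FGFR1;MYCN over 14-day tumors unless another comparison is named, with p-values of edgeR adjusted over all 18321 genes.

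Of the 6 genes of mitotic entry, 3 were higher in FGFR1;MYCN than in 14-day tumors. Ccnb1, which encodes cyclin B1, the activating partner of CDK1, stood at 10.7, 20.8, 16.4 and 19.2 CPM in the 14-day tumors and at 37.9, 32.96, 39.7 and 48.2 CPM in the 6- to 7-day tumors. Its lowest, median and highest values in FGFR1;MYCN tumors were 23.5, 43.01 and 107 CPM. The lowest FGFR1;MYCN tumor thus lay above all 14-day tumors, while the range enclosed all 6- to 7-day tumors, and the 3.26-fold difference from 14-day tumors was the largest increase among the 45 genes (1.70 ± 0.37, edgeR adjusted p = 0.00108). Cdc25c, a phosphatase that activates CDK1, ranged over 2.31 to 4.88 CPM at 14 days and over 4.95 to 21.02 CPM in FGFR1;MYCN tumors, again without overlap (1.58 ± 0.35, edgeR adjusted p = 0.00128). Ccna2, which encodes cyclin A2 of S phase and early mitosis, was 22.8, 39.4, 36.2 and 34.2 CPM at 14 days and 73.1, 66.1, 65.6 and 80.05 CPM at 6 to 7 days. In FGFR1;MYCN tumors it had 34.4, 61.5 and 129 CPM, a 2.07-fold higher level than at 14 days (1.05 ± 0.30, edgeR adjusted p = 0.00750), with 1 tumor, that of mouse15, inside the 14-day range.

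Cdk1, the mitotic kinase itself, did not pass the threshold, and its spread was the widest of the 45 genes. Its levels were 21.5, 30.7, 41.6 and 32.8 CPM in 14-day tumors, 63.6, 45.7, 62.5 and 65.3 CPM in 6- to 7-day tumors, and 23.7, 47.9 and 199 CPM in FGFR1;MYCN tumors, from mouse15 to the pelvic tumor of mouse23, an 8.40-fold range. The difference from 14-day tumors was 1.09 ± 0.44 (edgeR adjusted p = 0.0531). Ccnb2, which encodes cyclin B2, and Cdc25b, the phosphatase that starts CDK1 activation, stood apart from Ccnb1 and Cdc25c: their differences from 14-day tumors were 0.25 ± 0.34 and -0.06 ± 0.19 (edgeR adjusted p = 0.576 and 0.836). Cdc25b was the gene nearest to no difference, with levels of 13.2, 19.01, 18.7 and 19.1 CPM at 14 days and 12.9, 15.2 and 23.9 CPM in FGFR1;MYCN tumors.

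**Figure D3:**
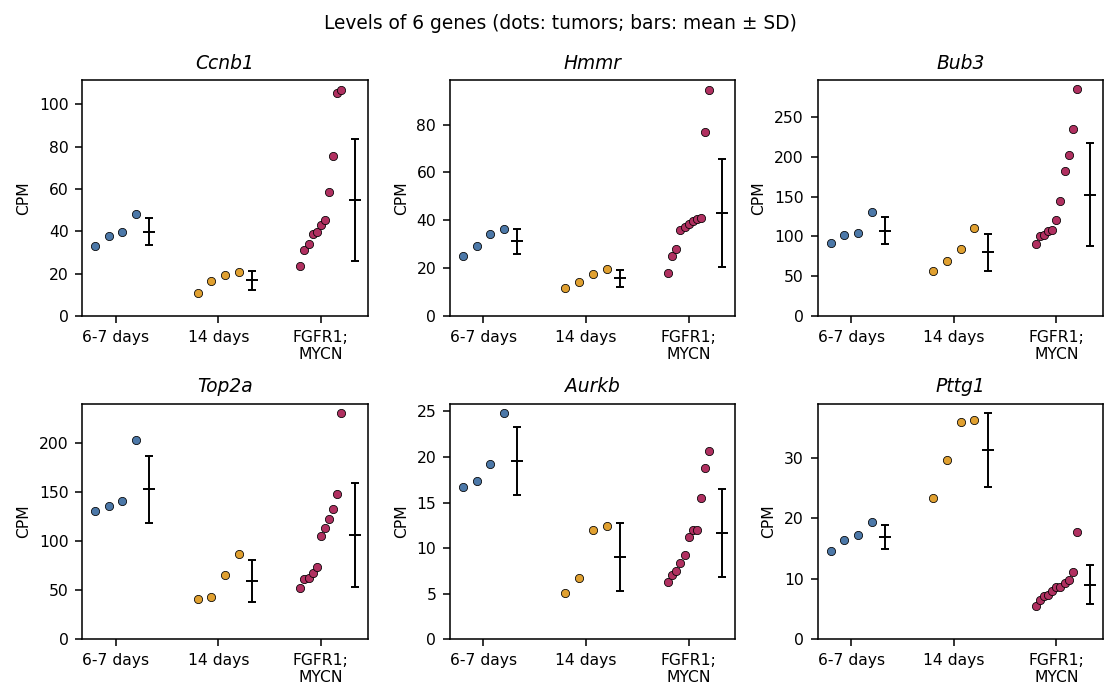
Levels of 6 genes in CPM (y axes, from 0) in each tumor (dots) of the 3 groups, with the mean ± SD of each group beside the dots. For Ccnb1 all 11 FGFR1;MYCN tumors lie above all 4 tumors of the 14-day group, and for Pttg1 all lie below them.

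In the spindle checkpoint, 4 of 5 genes were higher in FGFR1;MYCN tumors. Ttk, which encodes the kinase MPS1 that starts the checkpoint signal, and Bub1, a kinase it recruits to the kinetochore, had the largest differences (1.33 ± 0.32 and 1.31 ± 0.29, edgeR adjusted p = 0.00256 and 0.00124). Bub3, the adaptor that carries BUB1 and BUBR1 to kinetochores, was 56.2, 68.8, 84.7 and 111 CPM at 14 days and 102, 91.5, 131 and 105 CPM at 6 to 7 days. FGFR1;MYCN tumors had 90.3, 121 and 285 CPM, 1.90-fold more than 14-day tumors (0.93 ± 0.30, edgeR adjusted p = 0.0162), although T4 of the 14-day group lay among them.

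Mad2l1 encodes MAD2, the protein that holds CDC20 inactive. It ranged from 18.5 to 31.6 CPM in the 14-day group, with single tumors at 18.5, 24.4, 31.6 and 24.7 CPM. At 6 to 7 days it was 42.5, 32.7, 39.6 and 41.6 CPM, and in FGFR1;MYCN tumors 20.7, 34.7 and 76.2 CPM. The difference of 0.72 ± 0.29 lay close to the threshold (edgeR adjusted p = 0.0480) and its adjusted p reached 0.150 in other fits of the same counts. Bub1b, which encodes the checkpoint kinase BUBR1, was the member that did not pass. Its levels were 15.4, 24.6, 12.8 and 23.5 CPM at 14 days, 28.2, 29.1, 35.3 and 36.3 CPM at 6 to 7 days and 14.8, 24.7 and 43.1 CPM in FGFR1;MYCN tumors, and the groups overlapped widely (0.43 ± 0.28, edgeR adjusted p = 0.220).

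None of the 4 genes of the chromosomal passenger complex passed the threshold against 14-day tumors. This complex, made of the kinase Aurora B and its partners INCENP, survivin and borealin, corrects faulty attachments of the spindle. Aurkb, the gene of Aurora B, was 5.05, 11.996, 6.70 and 12.4 CPM at 14 days and 17.3, 16.7, 24.8 and 19.3 CPM at 6 to 7 days. FGFR1;MYCN tumors had 6.25, 11.3 and 20.6 CPM, which takes in all but the lowest 14-day tumor, T15 (0.37 ± 0.32, edgeR adjusted p = 0.368). Birc5, the gene of survivin, was 14.2, 18.1, 26.4 and 17.5 CPM at 14 days, 32.4, 25.8, 34.9 and 35.5 CPM at 6 to 7 days and 12.6, 24.4 and 82.1 CPM in FGFR1;MYCN tumors. Its highest value, in the pelvic tumor of mouse23, was far above the median of that group, and the difference from 14-day tumors was 0.66 ± 0.37 (edgeR adjusted p = 0.164). Incenp and Cdca8, the gene of borealin, differed by 0.37 ± 0.28 and 0.81 ± 0.34 (edgeR adjusted p = 0.311 and 0.0618). All 4 differences were above 0, and their SEs of 0.28 to 0.37 leave room for differences as large as the median of the 45 genes.

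Among the 7 kinetochore genes, 3 were higher in FGFR1;MYCN tumors: Ndc80, Nuf2 and Cenpf. NDC80 and NUF2 form one arm of the complex that grips microtubules, and SPC24 and SPC25 form the arm that anchors it. Ndc80 was 9.03, 10.7, 14.7 and 10.3 CPM in 14-day tumors, 21.1, 19.6, 17.2 and 23.8 CPM in 6- to 7-day tumors and 11.4, 21.2 and 38.01 CPM in FGFR1;MYCN tumors. Apart from those of mouse15 and mouse18, the FGFR1;MYCN tumors lay above the 14-day tumors, with a difference of 0.98 ± 0.26 (edgeR adjusted p = 0.00511). Nuf2 differed by 0.78 ± 0.30 (edgeR adjusted p = 0.0438), close to the threshold, and passed in 15 of 33 other fits of these data. Spc24 and Spc25 did not pass (0.63 ± 0.44 and 0.60 ± 0.29, edgeR adjusted p = 0.264 and 0.108). Cenpa, which encodes the histone H3 variant that marks centromeres, had 20.6, 30.99, 34.9 and 21.2 CPM at 14 days, 41.01, 34.99, 40.5 and 41.6 CPM at 6 to 7 days and 15.5, 28.1 and 80.7 CPM in FGFR1;MYCN tumors. Its groups overlapped and its difference from 14-day tumors was the smallest of this role (0.33 ± 0.33, edgeR adjusted p = 0.448). Cenpf, a large protein of the outer kinetochore, passed narrowly (0.97 ± 0.38, edgeR adjusted p = 0.0488), and Cenpe, the motor that carries chromosomes to the spindle's middle, did not (0.82 ± 0.40, edgeR adjusted p = 0.109). Among the FGFR1;MYCN tumors, both of these long genes were lowest in the adrenal tumor of mouse23.

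The spindle genes had the highest share past the threshold, 6 of 7, and the highest median log2 fold change of the 8 roles, 1.25. Hmmr, which encodes a spindle pole protein, and Kif2c, a kinesin that takes microtubules apart, were each 2.75-fold higher (1.46 ± 0.35 and 1.46 ± 0.36, edgeR adjusted p = 0.00221 and 0.00285). Kif4, a chromosome-bound kinesin, followed with 1.37 ± 0.30, and Dlgap5, a stabiliser of spindle microtubules, with 1.25 ± 0.34 (edgeR adjusted p = 0.00101 and 0.00611). Kif11, the kinesin that pushes the spindle poles apart, was 17.3, 29.5, 21.3 and 20.9 CPM at 14 days, 51.04, 49.01, 47.2 and 65.8 CPM at 6 to 7 days and 20.9, 47.1 and 97.6 CPM in FGFR1;MYCN tumors (1.09 ± 0.30, edgeR adjusted p = 0.00644). The FGFR1;MYCN tumors of mouse15 and mouse18 lay within the 14-day range and the other 9 above it.

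Tpx2 encodes the activator of the kinase Aurora A at the spindle. It was 13.5, 26.3, 13.4 and 29.4 CPM at 14 days, and T15 and T21 were low and T19 and T4 high. At 6 to 7 days it was 38.1, 41.6, 52.2 and 53.7 CPM, and FGFR1;MYCN tumors had 20.6, 40.7 and 75.3 CPM (0.95 ± 0.32, edgeR adjusted p = 0.0208). Nusap1, which bundles microtubules, was the spindle gene that did not pass (0.42 ± 0.31, edgeR adjusted p = 0.292).

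In cytokinesis, 4 of 6 genes were higher in FGFR1;MYCN tumors. Ect2, the exchange factor that switches on RhoA at the cell's equator, was 7.26, 17.02, 9.24 and 16.3 CPM at 14 days and 23.2, 22.2, 27.5 and 26.8 CPM at 6 to 7 days. Its FGFR1;MYCN values were 15.5, 27.2 and 54.5 CPM, and only the 14-day tumors T19 and T4 reached the lowest of them (1.27 ± 0.32, edgeR adjusted p = 0.00358). Kif20a, a kinesin that delivers the passenger complex to the central spindle, differed by 1.24 ± 0.34 (edgeR adjusted p = 0.00592). Prc1, which cross-links the central spindle, was 21.4, 36.3, 27.4 and 33.4 CPM at 14 days, 57.7, 57.4, 61.005 and 75.4 CPM at 6 to 7 days and 29.7, 44.7 and 86.6 CPM in FGFR1;MYCN tumors. Its difference of 0.71 ± 0.26 and that of its partner Kif23, 0.65 ± 0.25, were among the smallest that passed (edgeR adjusted p = 0.0315 and 0.0404). Anln encodes anillin, the scaffold of the contractile ring, and had the smallest difference of this role. It was 23.6, 29.6, 31.1 and 30.6 CPM at 14 days, 41.1, 43.2, 38.4 and 52.8 CPM at 6 to 7 days and 19.5, 31.04 and 51.8 CPM in FGFR1;MYCN tumors, which held all 14-day values within their range (0.21 ± 0.21, edgeR adjusted p = 0.445). Kif20b did not pass either (0.51 ± 0.36, edgeR adjusted p = 0.271).

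The 3 anaphase genes went in different directions. Ube2c, the enzyme that loads ubiquitin through the anaphase-promoting complex, was 12.8, 16.7, 28.4 and 23.5 CPM at 14 days, 38.4, 27.7, 47.3 and 36.5 CPM at 6 to 7 days and 21.6, 33.8 and 80.1 CPM in FGFR1;MYCN tumors, a 2.04-fold difference from 14 days (1.03 ± 0.32, edgeR adjusted p = 0.0150). Cdc20, the activator that the checkpoint holds back, was 8.596, 17.1, 11.7 and 18.2 CPM at 14 days, 22.6, 21.3, 33.4 and 25.3 CPM at 6 to 7 days and 9.35, 16.97 and 50.3 CPM in FGFR1;MYCN tumors. Its groups overlapped (0.62 ± 0.39, edgeR adjusted p = 0.211).

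Pttg1 encodes securin, which blocks the protease separase until anaphase and is destroyed with cyclin B1. Its levels were 35.9, 23.3, 36.2 and 29.7 CPM in the 14-day tumors and 16.4, 14.6, 19.4 and 17.3 CPM in the 6- to 7-day tumors. In FGFR1;MYCN tumors the lowest, median and highest values were 5.46, 8.63 and 17.7 CPM, and the highest was that of mouse2149, with the liver and pancreas RNA. All 11 FGFR1;MYCN tumors were thus below all 14-day tumors, and all but that of mouse2149 were below the lowest 6- to 7-day tumor. FGFR1;MYCN tumors had 0.290 times the 14-day level (-1.79 ± 0.22, edgeR adjusted p = 3.53e-06) and 0.535 times the 6- to 7-day level (-0.90 ± 0.22, edgeR adjusted p = 0.00465). Pttg1 passed in both comparisons in all 33 other fits that were run, with the fit without the tumor of mouse2149 counted more than once. Its adjusted p (edgeR, DESeq2 or limma) was at most 2.96e-05 and 0.0273. Between the ages it was 1.85-fold higher at 14 days, without overlap (0.89 ± 0.28, edgeR adjusted p = 0.117), where the other 44 genes had differences below 0. The 14-day tumors T15 and T21, with the highest Pttg1, had the lowest Ccnb1, Top2a and Mki67 of the 19 tumors. Other genes differed in T21. Within the 14-day group it was highest for 13 genes, Pttg1, Cdk1 and Ube2c among them, and lowest for 11. T15 was highest for 0 and lowest for 31. In T21, genes with short coding sequences also stood higher than long ones, as described below. Pttg1 has 597 coding bases, Top2a 4584 and Mki67 9531. The part of coding length in this pattern was not tested.

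Of the 7 genes of mitotic chromosomes, 4 were higher in FGFR1;MYCN tumors. Mki67, the gene of the Ki-67 antigen that coats mitotic chromosomes and is stained to count dividing cells, was 63.1, 125, 56.6 and 79.4 CPM at 14 days and 177, 209, 177 and 269 CPM at 6 to 7 days. FGFR1;MYCN tumors had 82.3, 140.4 and 382 CPM, so that the lowest of them lay below T19 (1.04 ± 0.36, edgeR adjusted p = 0.0270). Top2a, the topoisomerase that untangles sister chromatids, just missed the threshold. It was 43.5, 86.3, 41.5 and 65.7 CPM at 14 days, 136, 141, 131 and 203 CPM at 6 to 7 days and 52.5, 105 and 230.1 CPM in FGFR1;MYCN tumors (0.84 ± 0.34, edgeR adjusted p = 0.0546).

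The 5 other chromosome genes encode condensin I, the ring that compacts chromosomes. Smc2 and Ncapd2 were higher by 1.00 ± 0.27 and 0.92 ± 0.27, and Ncapg by 0.98 ± 0.33 (edgeR adjusted p = 0.00628, 0.00903 and 0.0215). Ncapd2 was 27.2, 45.99, 21.01 and 44.6 CPM at 14 days, 63.1, 74.2, 70.5 and 79.4 CPM at 6 to 7 days and 44.04, 58.3 and 109.7 CPM in FGFR1;MYCN tumors, and T19 and T4 were the 14-day tumors inside that range. Smc4 had the smallest difference of the role. It was 73.2, 103, 80.6 and 67.96 CPM at 14 days, 103, 98.4, 85.1 and 118 CPM at 6 to 7 days and 53.2, 102 and 167 CPM in FGFR1;MYCN tumors, and the 3 groups overlapped (0.15 ± 0.26, edgeR adjusted p = 0.682). Ncaph, the gene of the clasp that closes the ring, did not pass either (0.56 ± 0.28, edgeR adjusted p = 0.112).

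The comparison of the 2 ages of FGFR1 tumors asked how the same genotype differs between 6 to 7 and 14 days. The levels of 39 of the 45 genes were lower in every 14-day tumor than in every 6- to 7-day tumor, which held for 7.24% of all genes, and the median log2 fold change of the 45 genes was -0.995, against -0.04 over all genes. No gene of the 45 passed the adjusted threshold in edgeR. An unadjusted p under 0.05 was found for 36 of them, 35 lower and 1 higher, with 9.73% of all genes lower at that level, and 1.14% of all genes passed the adjusted threshold. The lowest adjusted p was that of Kif4, 0.0513, with a difference of -1.40 ± 0.34. DESeq2 called 14 of the 45, 13 lower and Pttg1 higher, and 979 of all 18321 genes. With limma on weighted log counts, 3 of the 45 and 435 of all 18321 genes were called. The missed threshold does not show that the 2 ages were alike: the mean of Mki67 was 208 ± 43.6 CPM (SD, n = 4) at 6 to 7 days and 81.1 ± 31.002 CPM (SD, n = 4) at 14 days.

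The largest differences between the ages were those of Kif4, Top2a (-1.36 ± 0.40), Mki67 (-1.36 ± 0.42) and Cenpf (-1.35 ± 0.45). The smallest below 0 were those of Smc4 (-0.31 ± 0.31), Bub3 (-0.42 ± 0.34) and Cenpa (-0.55 ± 0.39). The 5 genes whose ages overlapped were Smc4, Bub3, Birc5, Ube2c and Kif20b. The neuroblast markers of 3 of the 4 tumors of 14 days summed to 943, 981 and 1362 CPM, against 1681 CPM in the lowest 6- to 7-day tumor. The 14-day tumor T4 had 2455 CPM of these markers, above all 6- to 7-day tumors, and its 45 genes stood at 0.621 times their mean over the 19 tumors, below the 1.06 of the lowest 6- to 7-day tumor. Brown fat markers summed to 1899 to 3728 CPM at 14 days and to 284 to 1783 CPM at 6 to 7 days, without overlap, and all 8 log2 fold changes were above 0 (median 1.78). Adrenal cortex markers summed to 17.5, 7490.0, 655 and 12094 CPM at 14 days and to 84.4 to 1948 CPM at 6 to 7 days, and again all 8 were above 0 (median 2.97). The adjusted threshold was passed by 0 of the 8 markers of either list. Other lists moved in 1 direction as well, again with 0 markers past the threshold. All 8 endothelial markers were above 0 (median 0.52), and all 8 liver and all 8 neuroblast markers were below 0 (median -1.23 and -0.49). Of the 8 fibroblast markers, 4 were above and 4 below 0. The part of the content of any of these cells in the difference between the ages was not tested.

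Against 6- to 7-day tumors, FGFR1;MYCN tumors differed in 2 of the 45 genes, and both were lower: Pttg1 and Cdc25b. Of all genes, 17.9% were lower and 10.7% higher in this comparison. Cdc25b was 23.2, 22.2, 33.9 and 26.9 CPM at 6 to 7 days, and its FGFR1;MYCN values reached 23.9 CPM in mouse2138 (-0.66 ± 0.18, edgeR adjusted p = 0.0101). Without the 6- to 7-day tumor T2, which had the highest Cdc25b and the liver RNA, 1 gene passed, Pttg1. The log2 fold changes of the 45 genes ran from -0.90 to 0.51 with a median of -0.18, and 31 were below 0. Aurkb lay near the threshold on the lower side (-0.74 ± 0.30, edgeR adjusted p = 0.0716), and Ccnb1, Hmmr and Bub3 were the highest (0.46 ± 0.34, 0.47 ± 0.33 and 0.51 ± 0.29, edgeR adjusted p = 0.353, 0.323 and 0.215). For none of the 45 genes did the levels of these 2 groups stand apart without overlap, as they did for 15.8% of all genes. The counts against both FGFR1 ages rest on the same 11 FGFR1;MYCN tumors.

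When the 8 FGFR1 tumors were taken as 1 group, FGFR1;MYCN tumors differed in 6 of the 45 genes. Ccnb1 (0.95 ± 0.33), Hmmr (0.88 ± 0.29), Cdc25c (0.81 ± 0.32), Ttk (0.73 ± 0.28) and Bub3 (0.70 ± 0.23) were higher, with edgeR adjusted p of 0.0223, 0.0200, 0.0437, 0.0418 and 0.0183. Pttg1 was lower by this test (-1.41 ± 0.22, edgeR adjusted p = 3.78e-05). Of all genes, 19.5% were higher and 24.5% lower. Mki67 and Top2a, with log2 fold changes of 0.20 ± 0.33 and 0.00 ± 0.32, and Aurkb, with -0.29 ± 0.29, did not pass (edgeR adjusted p = 0.650, 0.994 and 0.443). Hmmr and Pttg1 passed in all 32 other fits of this comparison, with the fit without the tumor of mouse2149 counted more than once. The highest adjusted p in those edgeR, DESeq2 and limma fits was 0.0527 for Ccnb1, 0.0526 for Bub3, 0.0794 for Ttk and 0.106 for Cdc25c. The 11 FGFR1;MYCN tumors come from 8 mice: 3 genes passed with the adrenal tumor only for mice with 2 tumors, 4 with the mouse as a random effect in limma, and 7 with counts summed per mouse. This group of 8 joins tumors whose levels of 40 of the 45 genes did not overlap by age.

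FGFR1;MYCN tumors varied more among themselves than either FGFR1 group. The highest tumor of the group exceeded the lowest by a median of 4.17-fold over the 45 genes, from 1.85-fold for Cdc25b to 8.40-fold for Cdk1, against 1.39-fold in the 4 tumors of 6 to 7 days and 1.86-fold in the 4 of 14 days. Because a range grows with the number of tumors, the SD of log2 CPM is the fairer measure. Its median over the 45 genes was 0.60 in FGFR1;MYCN tumors, 0.38 at 14 days and 0.22 at 6 to 7 days, whereas its median over all genes was 0.46, 0.45 and 0.30. The 11 tumors come from 8 mice, while each FGFR1 tumor came from a mouse of its own. The tumor of mouse15 was the lowest of the 11 for 34 of 45 genes. That of mouse2138 was the highest for 29 and the pelvic tumor of mouse23 for 15. In that pelvic tumor, genes with short coding sequences stood high and long ones low, as described below. The part of this in the spread was not tested. Relative to the mean over all tumors, the 45 genes stood at 0.552 in mouse15 and at 1.91 in mouse2138. The tumor of mouse15 had the highest summed neuroblast markers of the group, 3201 CPM, and that of mouse2138 had 2449 CPM. In the 14-day group T15 was the lowest for 31 genes, and in the 6- to 7-day group T3 was the highest for 31.

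**Figure D4:**
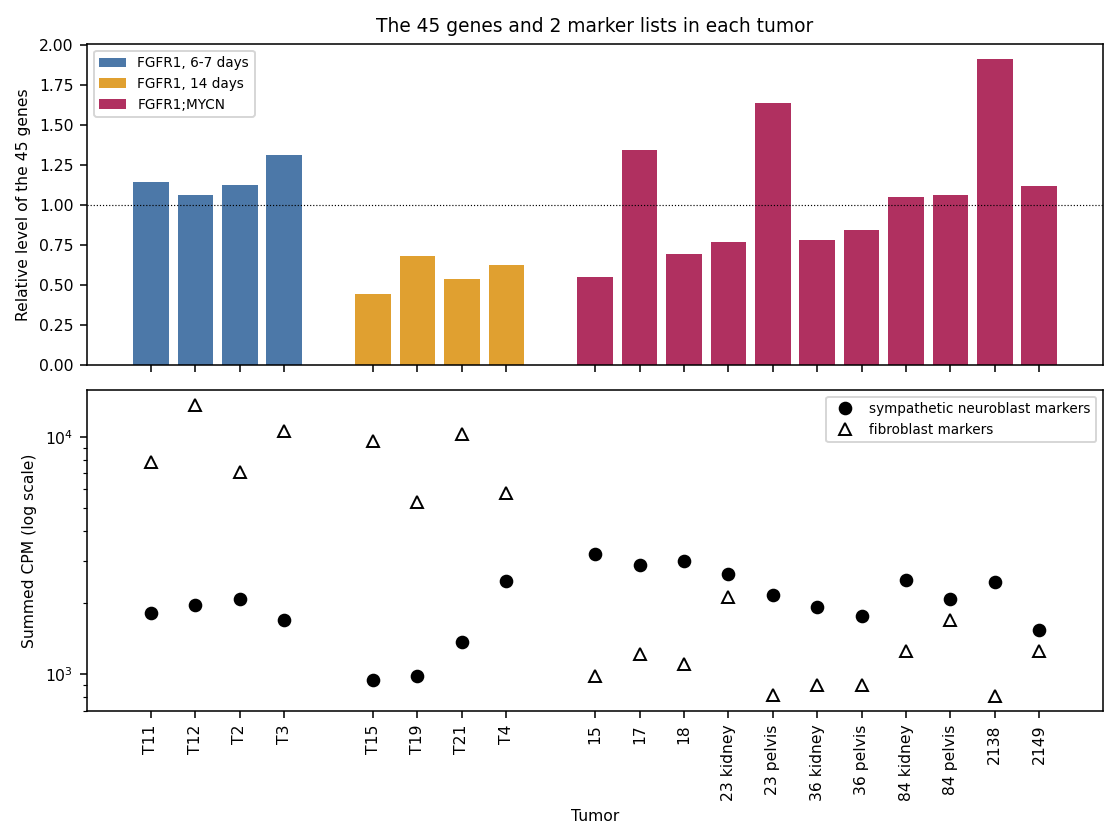
Level of the 45 genes in each tumor, relative to their mean over the 19 tumors (upper bars, from 0), and summed CPM of 8 neuroblast and 8 fibroblast markers (lower points, log scale). The 14-day tumors lie between 0.4402 and 0.682 and the 6- to 7-day tumors between 1.06 and 1.31, while FGFR1;MYCN tumors run from 0.552 to 1.91.

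The adrenal and the pelvic tumor of 1 mouse differed more in mouse23 than in mouse36 and mouse84. In mouse23, 42 of the 45 genes were higher in the pelvic tumor, with a median ratio of 2.09, from 0.755 for Ncapd2 to 4.83 for Spc24. The median ratio was 1.08 in mouse36 and 0.998 in mouse84, where 33 and 22 genes were higher in the pelvic tumor. Bub3 had the highest ratio in both mice, and it reached 2.21 in mouse36. With 1 tumor per site in each mouse, these are values with no test. In mouse23 the ratio went with the length of the gene's coding sequence. Relative to the median FGFR1;MYCN tumor, the 10 genes with a coding sequence under 1000 bases, which range from Cenpa with 402 bases to Bub3 and Cdca8 with 978, stood at a median of 2.44 in its pelvic tumor, and the 6 genes over 4000 bases (Ncapd2, Top2a, Kif20b, Cenpe, Cenpf and Mki67) stood at 0.536. All genes of these lengths stood at 1.60 and 0.420 in that tumor. In its adrenal tumor the short genes stood at 0.887 and the long ones at 0.524, where all genes of these lengths stood at 1.02 and 0.936. The 14-day tumor T21 had 1.30 and 0.777 relative to its own group, and 1.18 and 0.636 over all genes of these lengths. With a trend on coding length taken out of each tumor, 26 genes passed against 14-day tumors, 25 of them higher, as many as without it. The equal count need not mean the same genes. Over all comparisons, 5 calls on the 45 genes lost the threshold with this offset. The genes with a positive log2 fold change against 14-day tumors fell from 43 to 41.

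**Figure D5:**
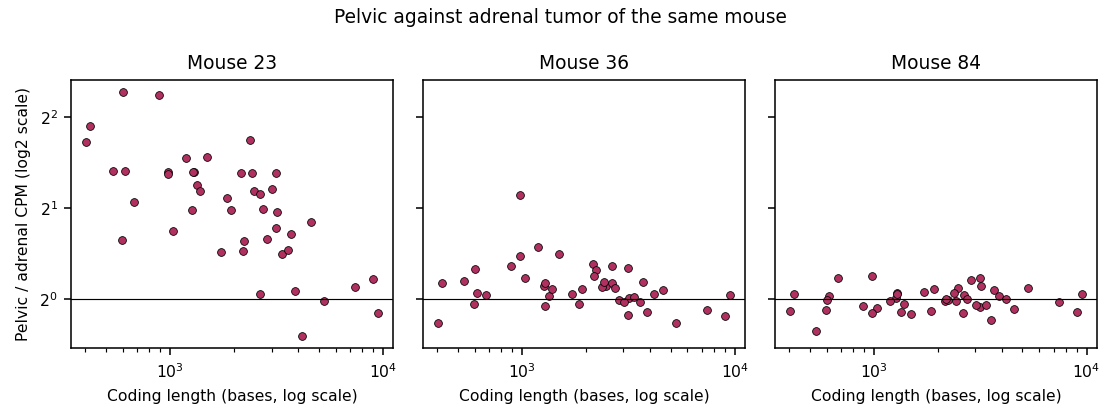
Ratio of pelvic to adrenal CPM (y axis, log2 scale) of the 45 genes against the length of their coding sequence (x axis, log scale) in the 3 mice with 2 tumors. In mouse23 the ratios fall from 4.83 for Spc24 to 0.755 for Ncapd2, and in mouse36 and mouse84 they lie between 0.787 and 1.49 except for Bub3 in mouse36, at 2.21.

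Among other genes of the cell cycle, the further mitotic genes exceeded the share of all genes that were higher than at 14 days, 20.3%, and the other lists lay nearer to it. Of 76 further mitotic genes, 40 were higher and 0 lower in FGFR1;MYCN than in 14-day tumors, with a median log2 fold change of 0.74, and 3 were higher and 2 lower than in 6- to 7-day tumors. The largest differences from 14-day tumors were those of Sapcd2 (1.71 ± 0.39), a regulator of spindle orientation, and Racgap1 (1.48 ± 0.30), the partner of KIF23 in the central spindle (edgeR adjusted p = 0.00155 and 0.000536). Of 39 DNA replication genes, 8 were higher than at 14 days, a share near that of all genes, and 0 were lower, against 23.7% of all genes, with a median of 0.39, led by Mcm10 (1.30 ± 0.33) and Cdc45 (1.19 ± 0.37), which help to start replication forks (edgeR adjusted p = 0.00392 and 0.0137). Of 17 genes of the anaphase-promoting complex and its partners, 4 were higher, again near the share of all genes, and 2 lower, led by the subunits Anapc13 (-0.96 ± 0.27) and Anapc15 (0.86 ± 0.28) (edgeR adjusted p = 0.00766 and 0.0179). Of 13 genes of cohesin and condensin II, 3 were higher, near that share as well, and 0 lower, led by Ncapg2 (1.04 ± 0.28, edgeR adjusted p = 0.00525).

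The regulators upstream of these genes were mixed, and of all genes 20.3% were higher and 23.7% lower than at 14 days and 10.7% were higher and 17.9% lower than at 6 to 7 days. Of 22 genes of the DREAM, E2F and FOXM1 systems, 6 were higher and 3 lower than at 14 days, not far from these shares, among them Mybl2 (1.31 ± 0.30), which encodes B-MYB, and Tfdp1 (1.12 ± 0.23), an E2F partner (edgeR adjusted p = 0.00157 and 0.000625). Foxm1 itself differed from 14-day tumors by 0.66 ± 0.32 and from 6- to 7-day tumors by -0.51 ± 0.30 (edgeR adjusted p = 0.102 and 0.226). Of 8 G1 cyclin and kinase genes, 3 were higher and 4 lower than at 14 days, and 0 were higher and 4 lower than at 6 to 7 days. Ccnd2 and Ccnd3, which encode D-type cyclins, were lower than at 14 days (-2.37 ± 0.35 and -2.37 ± 0.26) and than at 6 to 7 days (-2.04 ± 0.35 and -1.66 ± 0.26) (edgeR adjusted p = 2.61e-05, 1.08e-06, 0.000230 and 8.93e-05). Of 7 genes of CDK inhibitors, 1 was higher and 2 lower than at 14 days: Cdkn2a was higher (1.77 ± 0.43), and Cdkn1c and Cdkn2c were lower (-2.44 ± 0.33 and -2.10 ± 0.26, edgeR adjusted p = 0.00250, 1.03e-05 and 4.18e-06). The markers of fibroblasts, endothelium and Schwann cells were lower in FGFR1;MYCN tumors in the same 2 comparisons, and their part in the lower D-type cyclins was not tested.

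Exons of 13 of the 45 genes overlap another gene in the GENCODE annotation (GRCm38), and 11 of these share bases with a gene of the opposite strand: Ccna2, Cdc25b, Cdc25c, Cdca8, Kif4, Nusap1, Kif20a, Prc1, Cdc20, Ube2c and Ncapg. No strand option is listed for the counting, so that reads of these stretches cannot be told apart between the partners. Ube2c shares bases with the muscle gene Tnnc2, and T15 was the tumor with the most muscle RNA. T15 had the lowest Ube2c of the 8 FGFR1 tumors, but it was the lowest 14-day tumor for 31 of the 45 genes. The part of Tnnc2 reads in the counts of Ube2c was not tested.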

How the data were processed

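RNA was extracted from 19 murine tumors with TRIzol, and stranded libraries were sequenced with paired-end reads. Per the study's methods and the submitters' processing notes, the authors quantified reads with Kallisto 0.44.0 on combined mouse and human transcripts, with no strand option listed, and summed them to genes. The deposited table holds expected counts (Kallisto estimates, whole numbers, not normalized), and the second deposited table holds log2 values that the authors made with the variance-stabilizing transformation of DESeq2 1.32.0 in R 4.2.2. Length bias between libraries stays in such values.

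Counts were tested with edgeR 4.0.16 in R 4.3.3 (quasi-likelihood test, TMM factors, at least 10 counts in at least 8 tumors, 1 fit over the 3 groups, a separate fit for all 8 FGFR1 tumors, Benjamini-Hochberg adjustment, threshold 0.05). CPM are TMM-normalised. Intervals of counting error are narrow at these depths, so the tumors' spread sets the precision. DESeq2 1.42.0 and limma 3.58.1 were alternatives, with other factors, filters, left-out tumors, counts summed per mouse, and an offset for coding length. The edgeR step was tested on simulated data. Genes with values for every tumor, and the largest and smallest change of each role, were named by a fixed rule, and 2 genes were named from each other list. A few others were named after their values were seen. The members and lists were chosen with earlier results of these data known. Promoter windows came from RefSeq (GRCm38.p6) and lengths and overlaps from GENCODE. No 2 tumors agreed within sampling noise.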

Additional observations from a re-analysis of the deposited data

Results flagged for a closer look

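In groups of 4 tumors, 5 of 90 values stood apart from the other 3 of their group by Dixon's criterion at its 95% level, which chance alone passes in about 1 of 20 groups. Among the 6- to 7-day tumors, T12 was low for Cdk1 (45.7 CPM, the others 62.5 to 65.3) and for Cenpa (35.0 CPM, the others 40.5 to 41.6). T3 of the same group was high for Kif4 (29.7 CPM, the others 20.3 to 21.7) and for Top2a (203.0 CPM, the others 130.5 to 140.8). Among the 14-day tumors, T15 was low for Cdc25b (13.2 CPM, the others 18.7 to 19.1), and this tumor also had the most liver and muscle RNA of its group.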

How the results depend on the processing

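All 34 gene-by-comparison calls kept their direction in every alternative. Of the 26 calls against 14-day tumors, 16 also kept the threshold in all 33 other fits, Pttg1 among them. The fit without the tumor of mouse2149 was counted more than once in that number. With a log2 fold change above 1 required as well, the 45 genes past the threshold were 15 against 14-day tumors, 0 against 6- to 7-day tumors and 1 against all FGFR1 tumors, and all genes were 4993, 3210 and 4189. Between the ages 0 of the 45 genes and 209 genes in all passed. These counts became 1 and 329 with at least 10 counts in every tumor, 14 and 979 with DESeq2, 3 and 435 with limma and the mouse as a random effect, 2 and 317 with limma on the deposited values, and 2 and 539 without the tumor of mouse2149. The 45 gave 1 with upper-quartile factors, and all genes gave 97 with no filter and 0 with only the 2 ages in the fit, where the 45 gave 0 as well. Against all FGFR1 tumors 6 of the 45 passed, and 10 did with DESeq2, 3 with the adrenal tumor only for mice with 2 tumors and 3 without the 3 tumors of mouse17 and mouse23. Without those 3 tumors, 4 passed against 6- to 7-day tumors, where 2 did before.

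Leaving out each tumor in turn gave 16 to 29 of the 45 genes against 14-day tumors, 1 to 3 against 6- to 7-day tumors, 0 to 2 between the ages and 4 to 9 against all FGFR1 tumors. The 16 came without T15. All genes gave 6927 to 9461, 4124 to 7102, 47 to 568 and 7362 to 9583. The genes standing above or below all 14-day tumors were 4, and 7 with RLE factors and 9 with the deposited values. The cause of these changes was not tested. The offset for coding length, the tumors of mouse17 and mouse23 and the scalings of these non-overlap counts were chosen after seeing the data. No paired analysis was possible because the tumor numbers do not pair the groups. Each age of FGFR1 tumors had 4 tumors, and no gene of the 45 had fewer than 133 counts in a tumor.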
